A study of Mus musculus with 24 samples.

Results

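The insulin receptor pathway was represented by 10 genes, chosen by name with earlier results of these data known: Insr, Irs1, Irs2, Pik3r1, Akt1, Akt2, Ptpn1, Grb10, Grb14 and Tbc1d1. They were read by all array probes that carried one of these gene names in the scanner files, which gave 24 of the 56605 probes. After dim probes were left out, each of the 10 genes kept at least 1 probe, 21 probes in all, among 19937 gene names tested. RNA from skeletal muscle of 24 mice was read on one-colour arrays, 8 for each of 3 groups. Mice of the control lineage ate the low fat diet (STD_Cont) or the high fat diet (HFD_Cont). Mice of the omega-3 lineage ate the high fat diet (HFD_O3). No low fat group of the omega-3 lineage was analysed here, so in HFD_O3 against STD_Cont the diet and the lineage cannot be told apart. The sources used here do not give the muscle sampled, the age, sex or fasting state of the mice, the length of the diets or the origin of the omega-3 lineage.

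Insulin binds its receptor tyrosine kinase, which phosphorylates the insulin receptor substrates. These recruit phosphoinositide 3-kinase, whose lipid product brings AKT kinases to the membrane, where they are activated. In muscle, AKT acts on Rab GTPase-activating proteins such as TBC1D1 and lets glucose transporters move to the cell surface, while a tyrosine phosphatase and receptor-binding adaptors restrain the receptor.

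The probes are 60-base oligonucleotides, and the arrays read each gene where its probes lie, so sequences are given first, 5′ to 3′, with the mm9 coordinates of the scanner files. They are shown for Ptpn1, Tbc1d1 and Irs2, which had the largest changes relative to their error, and for Pik3r1, whose probe crosses an exon junction. Irs2, Pik3r1 and the middle probe of Tbc1d1 are shown whole, and the capitals mark 19 whole codons. Their place in the coding sequence and their reading frame come from general knowledge of these genes and not from the files, and only the absence of a stop codon in the frame was checked. The Irs2 probe (chr8:11004490-11004549, minus strand) lies at the end of the coding sequence. The Pik3r1 probe (chr13:102459406-102460448, minus strand) reads the part that codes for the first SH2 domain, and its 60 bases span 1043 bases of the genome. The middle Tbc1d1 probe lies at chr5:64736592-64736651 on the plus strand.
Irs2: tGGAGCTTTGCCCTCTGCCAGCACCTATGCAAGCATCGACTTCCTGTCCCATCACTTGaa
Pik3r1: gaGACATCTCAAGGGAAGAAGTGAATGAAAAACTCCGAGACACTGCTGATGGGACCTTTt
Tbc1d1, middle probe: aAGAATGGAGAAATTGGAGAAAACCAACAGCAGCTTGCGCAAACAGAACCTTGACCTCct
Ptpn1 was read by a pair of probes on the plus strand, at chr2:167802296-167802355 for the brighter one, which stands for the gene, and at chr2:167804295-167804354 for the dimmer one. They lie 1939 bases apart, and their first 30 bases are shown.
Ptpn1, brighter probe: acgaacagagtctaatctcagggccttaac
Ptpn1, dimmer probe: gaagaaccgagccttcacattgggtggctt

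Levels are given as log2 of the spot intensity processed by the scanner software, minus the 75th percentile of the same array, so that 0 stands for that percentile. Differences were tested with limma over all names (two-sided, Benjamini-Hochberg adjusted, threshold 0.05), and changes carry the moderated SE with n = 8 per group. Between 52 and 60.7% of the spots of an array were well above background, and the probes that stand for the 10 genes were well above background on 24 of 24 arrays, with 0 saturated. The 10 skeletal muscle markers were detected on all 24 arrays, and 0 of 6 markers of pancreatic beta cells and liver passed the filter. White adipocyte markers, 11 of 12 of them detected on all arrays, varied widely within every group, with a marker score (mean log2 level of the list, each gene centred on its mean) from −1.30 to 1.34 in STD_Cont, −1.15 to 2.04 in HFD_Cont and −1.22 to 1.52 in HFD_O3. The mean score was −0.08 in STD_Cont, 0.39 in HFD_Cont and −0.31 in HFD_O3. In HFD_Cont against STD_Cont, 8 of 12 white adipocyte markers were higher and 4 lower, with a median change of 0.22, and the 1 that passed the test fell (Plin4, −0.72 ± 0.15, adjusted p = 0.0168). In the same comparison 3 of 6 endothelial markers were higher and 3 lower, and the 1 that passed rose (Kdr, 0.45 ± 0.10, adjusted p = 0.0210). Of all names, 1.43% passed and rose and 1.48% passed and fell. HFD_Cont array 4 stood apart in its slow fibre markers, with a score of −4.04 where the other 23 arrays lay between −0.71 and 1.44. In whole muscle, fewer cells of a type and less RNA per cell cannot be told apart.

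The effect of fat in the diet within the control lineage was read from HFD_Cont against STD_Cont. Of the 10 pathway genes, Ptpn1 alone passed the threshold, and it fell. Its level on the high fat diet was 0.791 times that on the low fat diet. Irs1 (0.38) and Tbc1d1 (−0.40) had larger changes than Ptpn1 (−0.34) but also larger errors, and did not pass. In this comparison 2.91% of all names passed and 1.48% of all names fell, beside 1 of the 10 pathway genes. At an unadjusted p under 0.05, 1 pathway gene was higher and 2 were lower, where 16.6% of all names lay under that limit, 7.92% higher and 8.63% lower. The median change of the 10 genes was 0.04, beside 0.00228 over all names, and the median size of change was 0.25 beside 0.09.

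**Figure D1:**
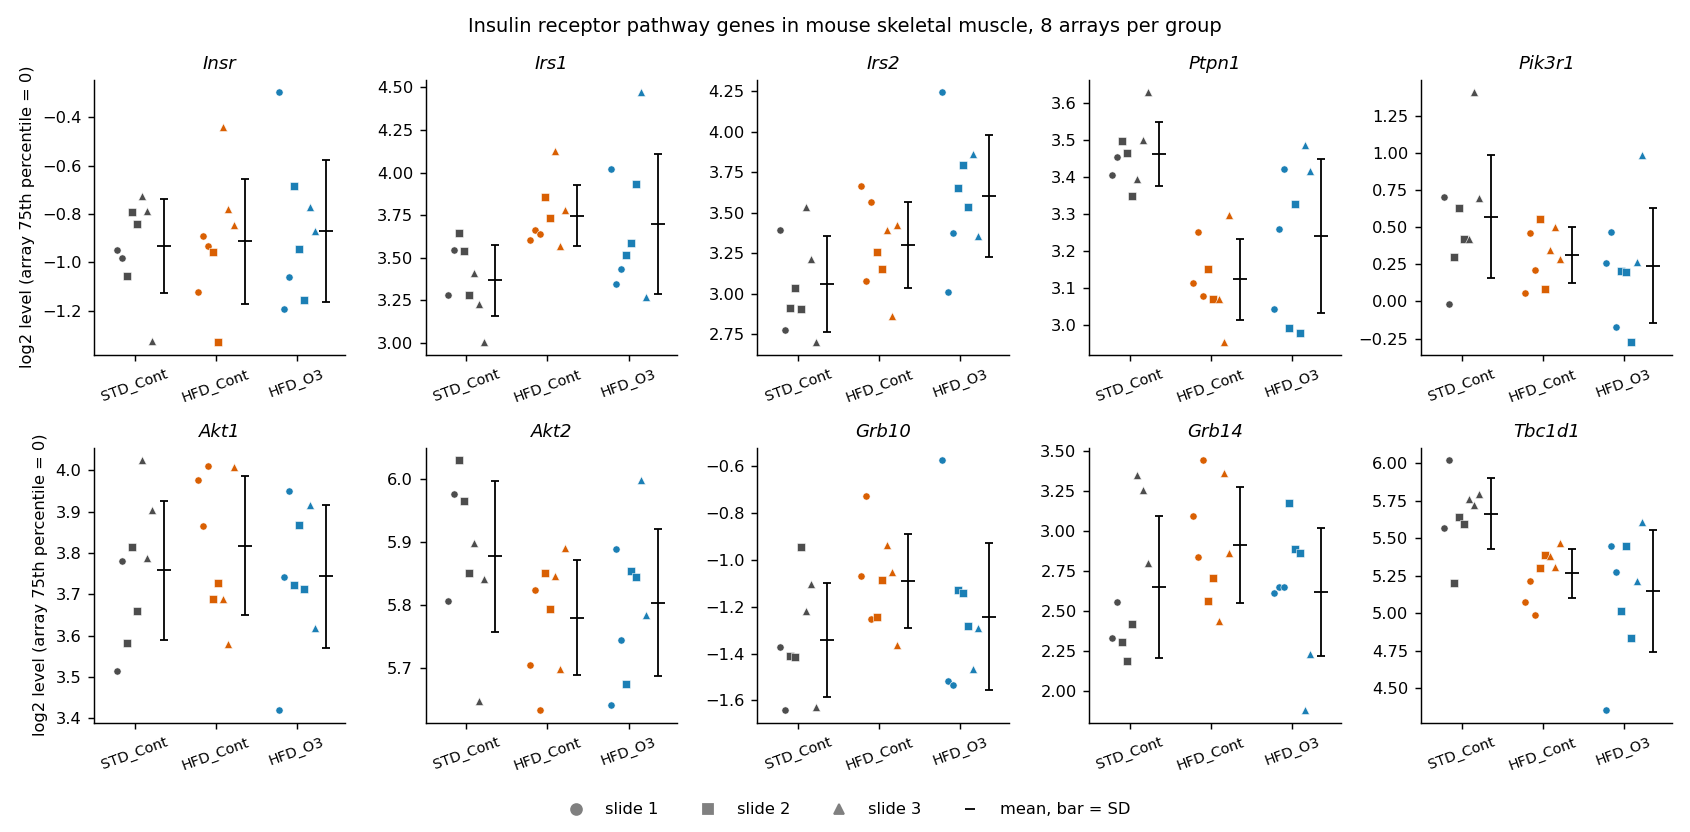
Log2 level of each pathway gene (array 75th percentile = 0, own scale in each panel) on the 24 arrays, by group, with the marker shape giving the slide and the bar the mean with its SD (n = 8 arrays). The 8 HFD_Cont arrays of Ptpn1 lie between 2.95 and 3.30, all under the lowest STD_Cont array at 3.35, while the groups of the other 9 genes overlap.

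Ptpn1 encodes the tyrosine phosphatase that removes phosphate from the activated insulin receptor. On the STD_Cont arrays its lowest, median and highest log2 levels were 3.35, 3.46 and 3.63. On the HFD_Cont arrays they were 2.95, 3.10 and 3.30. All 8 HFD_Cont arrays were below the lowest STD_Cont array, and groups that do not overlap occurred for 1.14% of all names. The log2 change was −0.34 ± 0.07 (95% interval −0.49 to −0.19, adjusted p = 0.0174), 122nd of the 19937 names by p.

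The arrays lay on 3 slides with 2 or 3 arrays of each group on every slide. A slide holds its arrays in rows, and the groups were not balanced over the rows. On the second slide every STD_Cont array was in row 2 and every HFD_Cont array in row 1. Diet and row therefore cannot be told apart in the changes of that slide, for any gene. Within the slides the Ptpn1 change was −0.28, −0.33 and −0.40. On the first slide the STD_Cont arrays lay between 3.41 and 3.46 and the HFD_Cont arrays between 3.08 and 3.25. The ranges on the second slide were 3.35 to 3.50 and 3.07 to 3.15, and those on the third 3.40 to 3.63 and 2.95 to 3.30. That the diets did not overlap on any slide already follows from their lack of overlap over all arrays. The dimmer Ptpn1 probe gave a log2 change of −0.41 ± 0.09, with an adjusted p of 0.0171 over all probes against 0.0186 for the brighter one, where 2.67% of all probes passed. Both probes therefore fell by amounts that differed by less than their standard errors. A further Ptpn1 probe, at chr2:167776663-167776722 and with a different transcript name, was well above background on 0 of 24 arrays.

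Adding the white adipocyte score to the fit gave a Ptpn1 change of −0.33 (adjusted p = 0.0270). Without the 7 arrays of a score over 0.5 it was −0.37 and its adjusted p was 0.262, in a fit in which 0 of all names passed. The call was kept in each of the 24 fits that left out 1 array, HFD_Cont array 4 included (adjusted p 0.00758 to 0.0359). The part of the endothelial marker Kdr in this result was not tested.

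Insr encodes the receptor itself. Its lowest, median and highest levels were −1.32, −0.90 and −0.73 in STD_Cont. The HFD_Cont arrays gave −1.33, −0.91 and −0.44, so the groups overlapped, with 1 HFD_Cont array above every STD_Cont array and 1 below. The change was 0.02 ± 0.12 with an interval from −0.23 to 0.27, which leaves room for a ratio between 0.851 and 1.21 (adjusted p = 0.969). A second Insr probe, well above background on 18 of 24 arrays, gave −0.22 ± 0.15.

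The 2 substrates that dock on the active receptor, Irs1 and Irs2, were both higher in the mean on the high fat diet, and neither passed the test. For Irs1 the lowest, median and highest levels were 3.00, 3.35 and 3.64 in STD_Cont and 3.57, 3.70 and 4.13 in HFD_Cont. All 8 HFD_Cont arrays were above the STD_Cont median and 5 were above the highest STD_Cont array. The change was 0.38 ± 0.14 (95% interval 0.10 to 0.66, adjusted p = 0.139), and 0.22, 0.31 and 0.61 within the slides. Irs2 levels were 2.70, 2.98 and 3.54 in STD_Cont and 2.87, 3.33 and 3.66 in HFD_Cont. The groups overlapped, with 7 of 8 HFD_Cont arrays above the STD_Cont median, and the change was 0.24 ± 0.15 (adjusted p = 0.467).

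Pik3r1, the main regulatory subunit of phosphoinositide 3-kinase, ranged from −0.02 to 1.41 around a median of 0.53 in STD_Cont and from 0.06 to 0.55 around 0.32 in HFD_Cont. The highest STD_Cont array stood well above every HFD_Cont array, and 1 of 8 HFD_Cont arrays exceeded the STD_Cont median. The change was −0.26 ± 0.17 (adjusted p = 0.477). Akt1, the kinase isoform of growth and survival signals, had medians of 3.78 in STD_Cont and 3.80 in HFD_Cont, with ranges of 3.52 to 4.03 and 3.58 to 4.01. The 2 ranges nearly coincided, and the change was 0.06 ± 0.08 with an interval from −0.11 to 0.23 (adjusted p = 0.800). Akt2, the isoform most tied to insulin-stimulated glucose uptake, had medians of 5.88 and 5.81 in narrow ranges of 5.65 to 6.03 and 5.63 to 5.89. Of the 8 HFD_Cont arrays 1 was above the STD_Cont median, and the change was −0.10 ± 0.06 with an interval from −0.22 to 0.02 (adjusted p = 0.436). For the probes that stand for Akt1 and Akt2, these intervals stayed under 0.25 on the log2 scale in either direction. They set no such bound for the other probes of these genes. In HFD_Cont against STD_Cont another Akt1 probe, well above background on 24 of 24 arrays, gave 0.25 ± 0.18, and the remaining one gave 0.02 ± 0.07.

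The adaptors Grb10 and Grb14, which bind the active receptor and inhibit it, were higher in the mean on the high fat diet and did not pass. Grb10 had a lowest, median and highest level of −1.64, −1.39 and −0.95 in STD_Cont and −1.36, −1.08 and −0.73 in HFD_Cont. All 8 HFD_Cont arrays were above the STD_Cont median, and 2 were above the highest STD_Cont array. The change was 0.25 ± 0.12 (95% interval −0.01 to 0.51, adjusted p = 0.316), and 3 of 3 Grb10 probes were higher, at 0.14, 0.21 and 0.25. The probe at 0.21 was well above background on 5 STD_Cont, 8 HFD_Cont and 7 HFD_O3 arrays. It passed the filter only through the high fat groups, so its sign is no further support. Grb14 spread over 2.19 to 3.35 in STD_Cont and 2.44 to 3.44 in HFD_Cont, with medians of 2.49 and 2.85. Its change was 0.26 ± 0.19 (adjusted p = 0.554), and it was 0.68, 0.33 and −0.25 within the slides.

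Tbc1d1 encodes a Rab GTPase-activating protein of muscle that AKT and AMP-activated kinase phosphorylate. Its lowest, median and highest levels were 5.20, 5.68 and 6.02 in STD_Cont and 4.99, 5.31 and 5.47 in HFD_Cont. No HFD_Cont array reached the STD_Cont median, and 2 lay under the lowest STD_Cont array. The change was −0.40 ± 0.14 (95% interval −0.68 to −0.11, adjusted p = 0.121), and −0.70, −0.13 and −0.37 within the slides. The middle probe shown above gave −0.38 ± 0.14, close to the probe that stands for the gene at chr5:64742581-64742640. The probe farthest upstream, at chr5:64565429-64565488 and 171103 bases before the middle one, gave 0.05 ± 0.20. It carries a different transcript name from the other Tbc1d1 probes, so it may not read the same transcripts.

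The HFD_O3 arrays enter the common estimate of spread, and whether Irs1 and Tbc1d1 passed differed between fits. Irs1 passed under 4 of 17 other settings and in 1 of 24 fits that left out 1 array. Tbc1d1 passed under 3 of 17 and in 1 of 24. Their highest adjusted p-values over the 17 settings were 0.605 and 0.533, and the fits that passed are given here. Adjusted p-values of Irs1 and Tbc1d1 were 0.0265 and 0.0255 in a fit of the STD_Cont and HFD_Cont arrays alone. Without HFD_O3 arrays 1 and 7 they were 0.0261 and 0.0361. Leaving out HFD_O3 array 1 alone gave 0.0418 for Tbc1d1, and leaving out HFD_O3 array 7 alone gave 0.0475 for Irs1. Array 1 held the lowest HFD_O3 level of Tbc1d1 (4.36) and array 7 the highest of Irs1 (4.47). Leaving them out narrows the estimate of spread by construction, while the changes stayed at −0.40 and 0.38. With all 24 arrays and array weights the adjusted p-values of Irs1 and Tbc1d1 were 0.0476 and 0.0391. Irs1 also passed with slide and array row as fixed blocks (0.0361), and Tbc1d1 did not. Over all names, 581 passed in the main fit, 1166 in the fit of 2 groups, 1247 without HFD_O3 arrays 1 and 7 and 1166 with array weights.

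The 2 lineages were compared on the high fat diet in HFD_O3 against HFD_Cont. None of the 10 pathway genes passed the limma test, and 0 of 19937 names passed in this comparison (percent called 0). An unadjusted p under 0.05 was reached by 0 pathway genes and by 7.08% of all names, 2.69% higher and 4.39% lower. The 2 groups overlapped for each of the 10 genes, and did not overlap for 0.0351% of all names. The median change of the 10 genes was −0.06, beside −0.01 over all names.

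Among the signal-carrying genes, Irs2 had the largest change, 0.31 ± 0.15 (95% interval −0.01 to 0.62, adjusted p = 0.702). Its HFD_O3 levels were 3.01, 3.60 and 4.24 (lowest, median, highest), and 7 of 8 were above the HFD_Cont median. Irs1 had HFD_O3 levels of 3.27, 3.55 and 4.47, which reached both above and below those of HFD_Cont, and a change of −0.05 ± 0.14. Insr changed by 0.04 ± 0.12, Pik3r1 by −0.07 ± 0.17, Akt1 by −0.07 ± 0.08 and Akt2 by 0.02 ± 0.06, none past the test. Their HFD_O3 medians were −0.91, 0.23, 3.73 and 5.81, inside the HFD_Cont range in each case.

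For Ptpn1 the HFD_O3 arrays ran from 2.98 to 3.49 with a median of 3.30. They comprised 4 arrays above the highest HFD_Cont array and 4 within the HFD_Cont range, and the change was 0.12 ± 0.07 (95% interval −0.03 to 0.27, adjusted p = 0.758). The 2 HFD_O3 arrays of the third slide, at 3.42 and 3.49, were among the higher ones. Grb14 had a change of −0.30 ± 0.19 (adjusted p = 0.765), with −0.49, 0.34 and −0.83 within the slides. Grb10 had a change of −0.15 ± 0.12 and Tbc1d1 one of −0.12 ± 0.14. The HFD_O3 levels of Tbc1d1 were 4.36, 5.25 and 5.61, with the lowest on array 1.

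**Figure D2:**
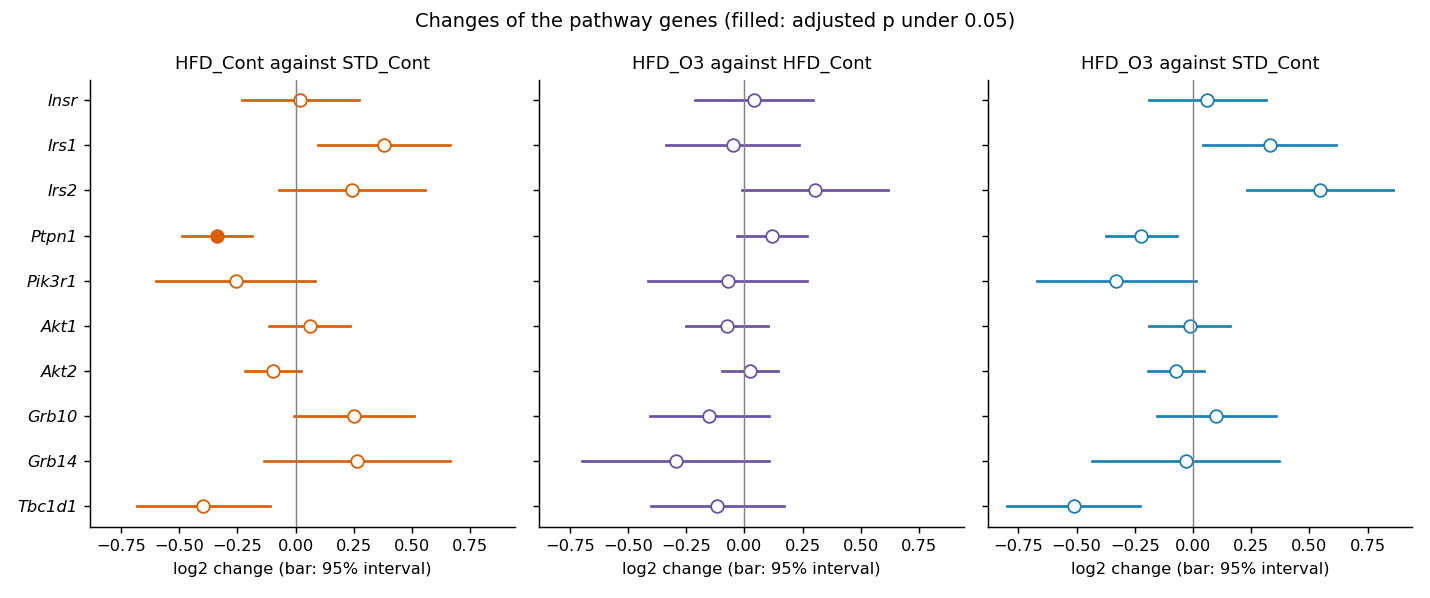
Log2 change of each pathway gene (x axis, with the 95% interval as the bar) in the 3 comparisons, 8 arrays per group, with filled points past an adjusted p of 0.05. Ptpn1 in HFD_Cont against STD_Cont is the only filled point, and in HFD_O3 against STD_Cont the intervals of Irs1, Irs2, Ptpn1 and Tbc1d1 lie on one side of 0.

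HFD_O3 against STD_Cont differs in both diet and lineage, and shares its STD_Cont arrays with the first comparison. None of the 10 pathway genes passed the limma test, where 0.597% of all names did. At an unadjusted p under 0.05, 2 pathway genes were higher and 2 were lower, where 11.2% of all names lay under that limit, 4.83% higher and 6.39% lower. These groups too overlapped for each of the 10 genes, beside 0.15% of all names without overlap. The higher ones were the substrates Irs1 and Irs2, and the lower ones Ptpn1 and Tbc1d1. The median change of the 10 genes was −0.02, beside −0.02 over all names, and the median size 0.16 beside 0.08.

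Irs2 had a change of 0.55 ± 0.15 (95% interval 0.23 to 0.86, adjusted p = 0.107). All 8 HFD_O3 arrays were above the STD_Cont median of 2.98, and 4 were above the highest STD_Cont array at 3.54. Within the slides the change was 0.46, 0.71 and 0.46. Over the 24 fits that left out 1 array it ran from 0.45 to 0.63 (adjusted p 0.0428 to 0.193), and 1 of them passed. That fit left out HFD_O3 array 2, the lowest of its group, which enlarges the change by construction (0.63, adjusted p = 0.0428). Without HFD_O3 arrays 1 and 7 the Irs2 change was 0.40 (adjusted p = 0.221). Irs1 had a change of 0.33 ± 0.14 (adjusted p = 0.347), which was 0.15 without HFD_O3 arrays 1 and 7.

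Tbc1d1 had a change of −0.51 ± 0.14 (95% interval −0.80 to −0.23, adjusted p = 0.0959). No HFD_O3 array reached the STD_Cont median, and 3 of 8 lay under the lowest STD_Cont array. The change was −0.77, −0.38 and −0.35 within the slides. Over the 24 fits that left out 1 array it ran from −0.58 to −0.40 (adjusted p 0.0400 to 0.212), and 1 of them passed. That fit left out HFD_O3 array 8, the highest of its group, which enlarges the fall by construction (−0.58, adjusted p = 0.0400). Without HFD_O3 arrays 1 and 7 the Tbc1d1 change was −0.39 (adjusted p = 0.136). Ptpn1 had a change of −0.22 ± 0.07 (95% interval −0.37 to −0.07, adjusted p = 0.192), with 5 of 8 HFD_O3 arrays under the lowest STD_Cont array. It was −0.19, −0.34 and −0.06 within the slides.

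The remaining genes showed smaller or less certain changes against STD_Cont. Pik3r1 had −0.33 ± 0.17 (adjusted p = 0.465), with HFD_O3 levels from −0.27 to 0.98. Akt2 had −0.07 ± 0.06, Akt1 −0.01 ± 0.08, Insr 0.06 ± 0.12, Grb10 0.10 ± 0.12 and Grb14 −0.03 ± 0.19. For Akt1 the interval ran from −0.19 to 0.16, and for Akt2 from −0.19 to 0.05.

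For 7 genes several probes were kept. In HFD_Cont against STD_Cont the kept probes of Ptpn1, Akt1, Akt2, Grb10 and Grb14 had changes of 1 sign within each gene, and those of Insr and Tbc1d1 did not. For Grb10 this includes the probe that passed the filter only through the high fat groups. The Akt1 probes gave 0.06, 0.25 and 0.02, and the Akt2 probes −0.10, −0.03 and −0.10. Both Grb14 probes were higher, at 0.26 and 0.15, and the other 2 Grb14 probes were well above background on 11 and 1 of 24 arrays and were not kept. In HFD_O3 against STD_Cont the dimmer Ptpn1 probe gave −0.30 (adjusted p over all probes 0.121, where 0.551% of all probes passed), and the Tbc1d1 probes gave −0.51, −0.44 and −0.09. In that comparison the probes of Insr, Akt1 and Akt2 differed in sign, with changes of 0.08 or less in size, and in HFD_O3 against HFD_Cont those of Akt1 and Grb10 did. Irs1, Irs2 and Pik3r1 had 1 probe each, so no second reading was at hand for them.

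**Figure D3:**
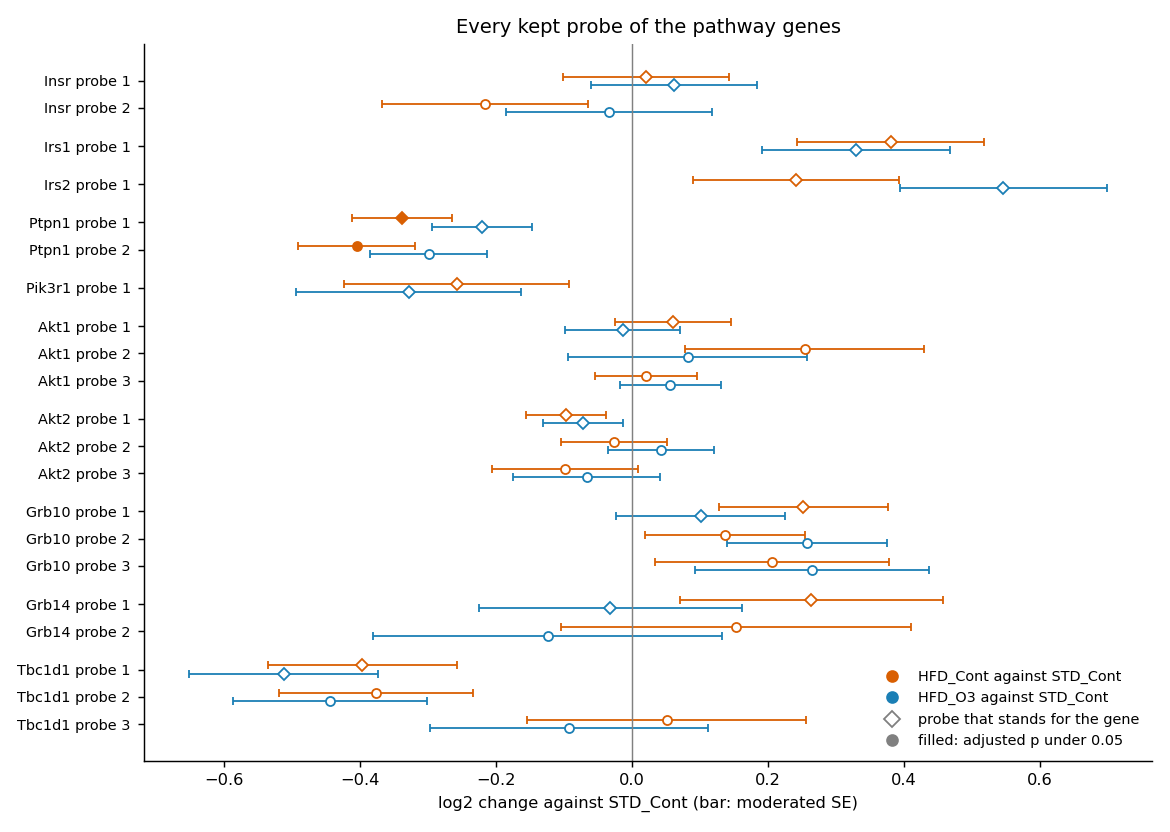
Log2 change against STD_Cont (x axis, bar = moderated SE) of the 21 kept probes of the pathway genes, in HFD_Cont and HFD_O3, 8 arrays per group, with a diamond for the probe that stands for the gene and filled symbols past an adjusted p of 0.05. Both Ptpn1 probes are filled in HFD_Cont (−0.34 and −0.41), and of the 3 Tbc1d1 probes the one farthest upstream lies near 0 (0.05 in HFD_Cont).

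The genes differed in how much they varied between mice of 1 group. The pooled SD of the log2 level was 0.11 for Akt2, which put it at the 16.4th percentile of all names, and 0.14 for Ptpn1 (33.3rd percentile). At the other end, the SD was 0.41 for Grb14 (87.9th percentile), 0.35 for Pik3r1 and 0.32 for Irs2, against a median of 0.18 over all names. A change of a given size was therefore read with least error for Akt2 and Ptpn1. HFD_O3 array 1 was the highest or lowest of its group for 6 of the 10 genes, 3 each way. It had the highest HFD_O3 levels of Insr (−0.30), Irs2 (4.24) and Grb10 (−0.57) and the lowest of Akt1 (3.42), Akt2 (5.64) and Tbc1d1 (4.36).

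Other genes of the pathway came from 5 lists with 92 measured genes, of which 6 passed in HFD_Cont against STD_Cont (6.52%, beside 2.91% of all names). In HFD_O3 against STD_Cont 1 passed (1.09%, beside 0.597%), and in HFD_O3 against HFD_Cont 0. The lists were chosen with earlier results of these data known, so these shares describe the lists and are no test of the pathway. Among receptors and adaptors related to the insulin receptor, 0 of 13 measured genes passed in any comparison. Sh2b1, an adaptor that binds the active receptor, had the smallest p against STD_Cont in HFD_Cont, with 0.24 ± 0.09 (adjusted p = 0.146). Among 17 kinases and subunits of phosphoinositide 3-kinase, AKT and mTOR, 1 rose in HFD_Cont and 0 passed in the other comparisons. It was Pik3r3, another regulatory subunit of the kinase that Pik3r1 serves. Its levels were 0.58, 0.88 and 1.15 (lowest, median, highest) in STD_Cont and 1.06, 1.17 and 1.31 in HFD_Cont, with a small overlap. The change was 0.29 ± 0.08 (adjusted p = 0.0465), and the call was kept in 9 of 24 fits that left out 1 array. Pik3c2a, a lipid kinase, had the smallest p in HFD_O3 against HFD_Cont, with 0.37 ± 0.11 (adjusted p = 0.539).

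Of 27 measured negative regulators of insulin signalling, 2 fell in HFD_Cont against STD_Cont, 0 rose and 25 did not pass, where 1.48% of all names fell. At an unadjusted p under 0.05, 6 of the 27 were lower and 3 higher, beside 8.63% and 7.92% of all names. Cblb, a ubiquitin ligase, had levels of 1.31, 1.80 and 2.0 in STD_Cont and 1.06, 1.17 and 1.43 in HFD_Cont. Only the lowest STD_Cont array lay inside the HFD_Cont range, and the change was −0.52 ± 0.11 (adjusted p = 0.0193). Fkbp5 encodes a co-chaperone known to scaffold an AKT phosphatase, and fell by 1.41 ± 0.32 on the log2 scale (adjusted p = 0.0215), from a median of 5.06 to 3.49. Its lowest STD_Cont array, at 3.85, was under the highest HFD_Cont array, at 4.03. In HFD_O3 against STD_Cont the smallest p-values of the list belonged to Trib3, an AKT-binding pseudokinase (−0.41 ± 0.12, adjusted p = 0.120), and the phosphatase gene Ptpn11 (−0.19 ± 0.06, adjusted p = 0.135). The median change of the list was −0.04, −0.03 and 0.01 in HFD_Cont against STD_Cont, HFD_O3 against STD_Cont and HFD_O3 against HFD_Cont, beside 0.00228, −0.02 and −0.01 over all names.

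Of 28 measured effectors of AKT and glucose transport, 3 fell in HFD_Cont against STD_Cont, 0 rose and 25 did not pass, where 1.48% of all names fell. At an unadjusted p under 0.05, 10 of the 28 were lower and 2 higher, beside 8.63% and 7.92% of all names, and the list's median change was −0.05. Foxo1, a transcription factor that AKT keeps out of the nucleus, had levels of 2.99, 3.38 and 3.76 in STD_Cont and 2.54, 2.69 and 2.99 in HFD_Cont. The ranges met only at their ends, and the change was −0.64 ± 0.14 (adjusted p = 0.0193). Its relative Foxo3 fell by 0.45 ± 0.10 (adjusted p = 0.0234), from a median of 0.63 to 0.14. Lnpep, an aminopeptidase that travels with the insulin-responsive glucose transporter, fell by 0.21 ± 0.06 (adjusted p = 0.0442), and 8 of 24 fits that left out 1 array made this call.

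In HFD_O3 against HFD_Cont, 0 of the 27 negative regulators and 0 of the 28 effectors passed. The transporter itself, Slc2a4, was the 1 of these 28 genes that fell in HFD_O3 against STD_Cont. Its levels were 8.11, 8.23 and 8.30 in STD_Cont, 7.99, 8.05 and 8.16 in HFD_Cont and 7.81, 8.02 and 8.18 in HFD_O3. No array of either high fat group reached the STD_Cont median. The change was −0.21 ± 0.05 (adjusted p = 0.0489) in HFD_O3 and −0.17 ± 0.05 (adjusted p = 0.0755) in HFD_Cont, and −0.05 ± 0.05 between the high fat groups. The HFD_O3 call was kept in 3 of 24 fits that left out 1 array. A second Slc2a4 probe gave −0.09 in HFD_O3 against STD_Cont (adjusted p over all probes 0.837). In HFD_Cont against STD_Cont the second probe gave 0.01 (adjusted p over all probes 0.974). Tbc1d4, the close relative of Tbc1d1, named here after its value was seen, had a change of −0.02 ± 0.09 in HFD_Cont against STD_Cont. Of 7 measured insulin-like growth factors and binding proteins, 0 passed in any comparison, and Igfbp5 had the smallest p with 0.59 ± 0.18 in HFD_Cont against STD_Cont (adjusted p = 0.0680).

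Second probes bore out these calls only in part. Among the other kept probes, adjusted over all probes, that of Foxo1 (−0.65, adjusted p = 0.0336) and 1 of 3 of Cblb (−0.62, adjusted p = 0.0267) passed. Those of Fkbp5 (−1.12, adjusted p = 0.104) and Foxo3 (−0.41, adjusted p = 0.143), the other 2 of Cblb (−0.56 and −0.31) and all 3 of Lnpep (−0.18, −0.13 and −0.13) did not. With the mean of its probes Lnpep had a change of −0.16 (adjusted p = 0.439). Adjusted over all probes, the probes that stand for Pik3r3 (adjusted p = 0.0503, HFD_Cont against STD_Cont) and Slc2a4 (0.0563, HFD_O3 against STD_Cont) did not pass either. The calls of Cblb and Foxo1 were kept in 24 of 24 fits that left out 1 array, and those of Fkbp5 and Foxo3 in 23. Without STD_Cont array 1 the adjusted p was 0.0534 for Fkbp5 and 0.0572 for Foxo3. With slide and array row as fixed blocks the changes of Cblb, Fkbp5, Foxo1 and Foxo3 were −0.53, −1.53, −0.63 and −0.40 and did not pass (adjusted p = 0.0900, 0.105, 0.122 and 0.145), and with no filter on dim probes their adjusted p-values were 0.0536, 0.0571, 0.0535 and 0.0655. With slide as a fixed block the calls of Pik3r3 (adjusted p = 0.0520) and Slc2a4 (0.0765) were lost, and with slide as a random block those of Pik3r3 (0.0511), Lnpep (0.0513) and Slc2a4 (0.0519). Without the 7 arrays of a high white adipocyte score the changes of Cblb, Fkbp5, Foxo1 and Foxo3 were −0.46, −1.36, −0.58 and −0.35 and did not pass, with 0 of all names past the threshold.

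**Figure D4:**
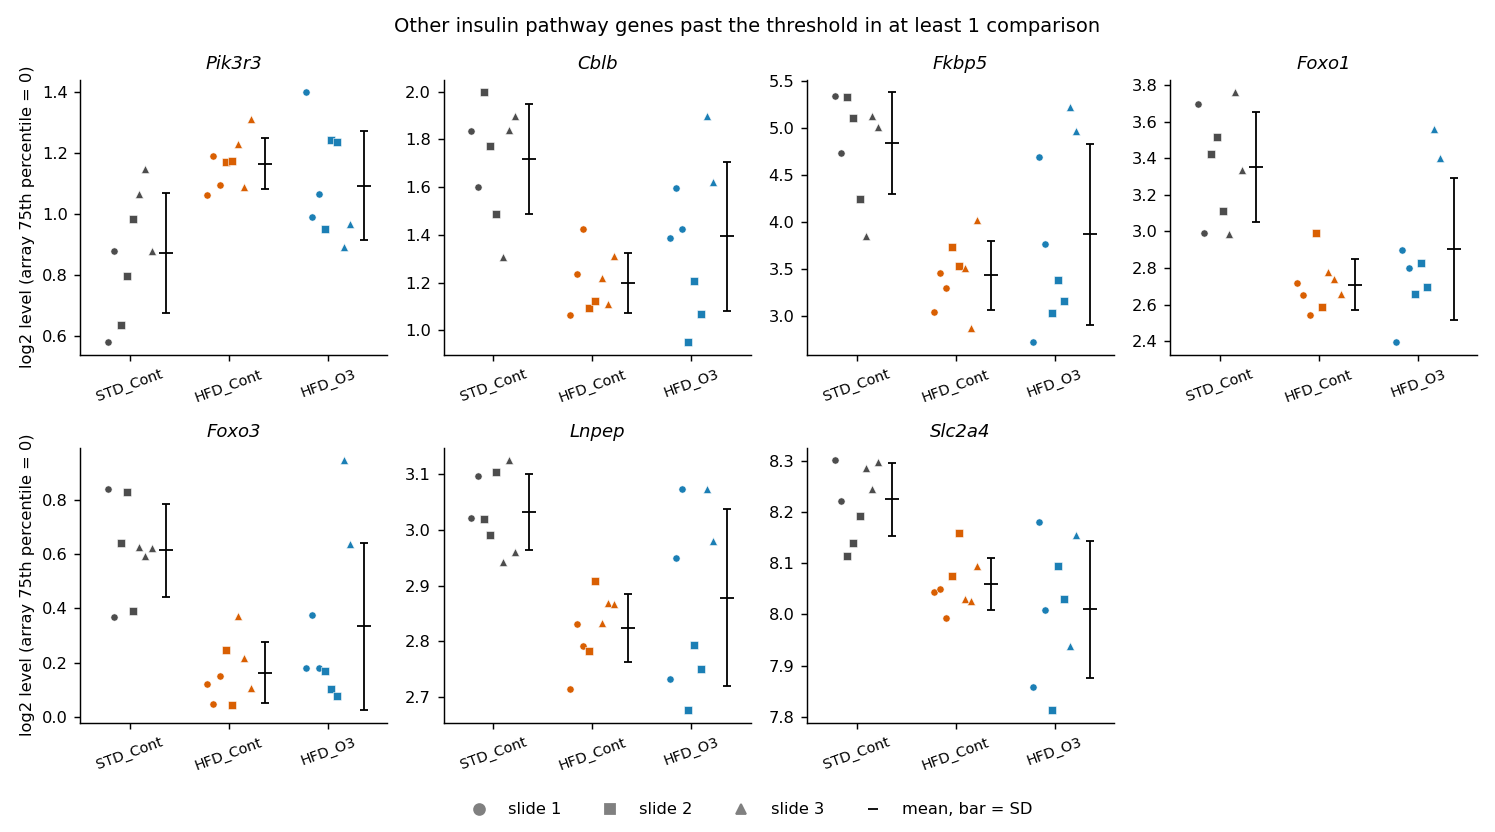
Log2 level (array 75th percentile = 0, own scale in each panel) of the 7 other pathway genes that passed the threshold in at least 1 comparison, on the 24 arrays by group, with the marker shape giving the slide and the bar the mean with its SD (n = 8). Foxo1, Foxo3, Fkbp5 and Cblb lie lower in HFD_Cont than in STD_Cont, and HFD_O3 spreads over both ranges, with Fkbp5 from 2.73 to 5.23.

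Over the 24 arrays, after each group mean was subtracted, 3 of 14898 genes with a plain symbol tracked Ptpn1 most closely. They were Spns2, a lipid transporter gene (r = 0.83, Spearman's rho 0.77), the transcription factor gene Patz1 (r = 0.81, rho 0.80) and Slc16a3, a lactate transporter gene (r = 0.81, rho 0.74). Without the 2 arrays farthest from the median of Ptpn1 the correlations were 0.78, 0.75 and 0.75. These genes were picked as the highest of all, so the values are a description without a test, and arrays share their slide and scaling. In HFD_Cont against STD_Cont, Spns2 fell by 0.63 ± 0.16 (adjusted p = 0.0362) and Patz1 by 0.36 ± 0.09 (adjusted p = 0.0256), while Slc16a3 had a change of −0.37 ± 0.11 (adjusted p = 0.0829).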

How the data were processed

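Total RNA was labelled with Cy3 and hybridised to one-colour Agilent arrays, 1 per sample, per the labels' protocols. The deposited scanner files hold spot intensity, background-subtracted and detrended by Agilent Feature Extraction 10.10.1.1 per the file headers, with probe coordinates on mm9. The authors' deposited value table holds log2 values, for which the submitters' processing notes name limma. The sources used here do not give its filter.

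Outlier spots were left out, log2 processed intensity was scaled by the 75th percentile of an array's non-control probes, and 29245 of 56605 probes were kept that were well above background on at least 6 of 8 arrays of at least 1 group. The brightest kept probe stood for each of 19937 names. Symbols came from RefSeq (GRCm38.p6) for 32989 probes with a matching accession, otherwise from the array design. Which exon a probe lies in was not looked up, since no mm9 annotation was used.

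Groups were compared with limma 3.58.1 in R 4.3.3 (lmFit, eBayes, all 24 arrays, no block), tested on simulated data. The number of arrays limits the precision. Labels number the samples but do not say more of their origin than 8 mice per group, and p-values measure the spread between these samples. The members and lists were chosen with earlier results of these data known. All 10 members were named, and from each list the genes past the threshold, otherwise up to 2 with the smallest p, of which the text gives a selection. Alternatives were other background corrections, scalings, filters, probe rules, blocks, variance models, marker covariates and left-out arrays. Tables were handled in pandas 2.3.3 and plotted in matplotlib 3.10.9.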

Additional observations from a re-analysis of the deposited data

Results flagged for a closer look

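Grb10 in HFD_O3 array 1 stood apart from the rest of its group. Its log2 level was −0.57 and the nearest other HFD_O3 array was at −1.13, a gap of 0.578 of the whole range of the group, above the limit of 0.526 for 8 samples. It was the 1 such case among 51 groups of values (17 genes in 3 groups), and chance marks about 1 in 20.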

How the results depend on the processing

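Ptpn1 was lower in HFD_Cont than in STD_Cont under all 17 other settings (−0.42 to −0.32) and passed under 14. Its adjusted p was 0.0507 with median scaling, 0.0530 with no filter on dim probes and 0.262 without the 7 adipocyte-rich arrays. In the 24 fits that left out 1 array it was called 24 times (−0.36 to −0.31, adjusted p 0.00758 to 0.0359). In HFD_Cont against STD_Cont the count of pathway genes past the threshold went from 1 to 0 with median scaling, no filter, each slide alone and without adipocyte-rich arrays, to 2 with slide and array row as blocks (Irs1 added, at 0.67), and to 3 with only the 2 groups compared, with array weights and without HFD_O3 arrays 1 and 7. It ranged from 1 to 2 when 1 array was left out. In HFD_O3 against HFD_Cont it was 0 throughout, and in HFD_O3 against STD_Cont 0 under every setting and 0 to 1 when 1 array was left out.

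Over all names, 581 passed in HFD_Cont against STD_Cont. The count was 177 with median scaling, 135 with no filter, 73 with slide and row, 1166 with only the 2 groups compared, 1166 with array weights, 1247 without HFD_O3 arrays 1 and 7, and 0 on each slide alone and without adipocyte-rich arrays. It ranged from 184 (without STD_Cont array 1) to 983 (without HFD_O3 array 7). In HFD_O3 against STD_Cont 119 passed, against 62 with median scaling, 46 with no filter, 47 with slide and row, 36 with only the 2 groups, and 0 on each slide alone and without adipocyte-rich arrays, and from 68 (without STD_Cont array 3) to 347 (without HFD_O3 array 7). In HFD_O3 against HFD_Cont 0 passed, and 0 to 1 with 1 array left out. Slides alone and the fit without adipocyte-rich arrays hold fewer samples by construction. For the other settings the cause was not tested. No called gene changed sign.

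Same-numbered samples were not treated as pairs in the main fit. Of 24 same-numbered pairs of deviations, 6 correlated over 0.1 (−0.145 to 0.365), and those of replicate 4 lay between 0.158 and 0.365. Pairs of unlike number were not compared, so whether the numbers pair the samples was not tested. With the replicate block 1, 0 and 0 pathway genes and 628, 0 and 89 names passed in HFD_Cont against STD_Cont, HFD_O3 against HFD_Cont and HFD_O3 against STD_Cont. Ptpn1 kept its call (adjusted p = 0.0187), and Pik3r3 (0.0703) and Slc2a4 (0.0624) did not. Pik3r3 and Slc2a4 also lost theirs with slide as a fixed block (0.0520 and 0.0765), and Ptpn1 kept it.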

Other observations

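Across the 24 arrays, after group means were subtracted, the 45 pairs of pathway genes were correlated with each other (two-sided permutation test, 100000 resamples, Benjamini-Hochberg adjusted over the pairs). For Pearson's r, 2 pairs had an adjusted p under 0.05. The resamples shuffled all arrays regardless of group and slide and took no account of the subtracted group means. The p-values are therefore likely too small, and neither pair is established by them. Akt2 and Grb14 varied in opposite directions (r = −0.621, permutation p = 0.00138, adjusted p = 0.0436, Spearman's rho −0.595, permutation p = 0.00272, adjusted p = 0.0852). Without HFD_O3 array 1 and STD_Cont array 7, the arrays farthest from the median of Akt2, r was −0.603, and within the slides it was −0.406, −0.670 and −0.705. Insr and Grb10 varied together (r = 0.609, permutation p = 0.00194, adjusted p = 0.0436, Spearman's rho 0.567, permutation p = 0.00469, adjusted p = 0.0852). Without HFD_O3 array 1 and HFD_Cont array 6 this r was 0.411, so that it rested in part on those arrays, and within the slides it was 0.830, 0.327 and 0.680.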
